A study of Homo sapiens with 6 samples.

Results

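Chromatin remodelers are protein machines that use ATP to slide, eject or exchange nucleosomes, the histone spools around which DNA is wound, and so set how easily a gene or enhancer can be reached. The SWI/SNF family comes in 3 assemblies, canonical BAF, PBAF and non-canonical BAF (ncBAF), which share a motor and a scaffold but differ in the subunits that bind DNA or read histone marks. The ISWI, CHD and INO80-type families are built around other motors of the same ATPase class, and subunits of SWI/SNF are among the chromatin genes most often mutated in human tumors. The genes described here are 44 such remodelers, chosen by name, and all 44 were found by symbol among the 37887 rows of the count table.

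Their RNA was measured in MDA-MB-436, a triple-negative breast cancer line with mutant BRCA1, carrying a stable tetracycline-inducible shRNA directed at MUC1. The control group (3 libraries) received 0.1% DMSO as vehicle, and the shMUC1 group (3 libraries) received 500 ng/ml doxycycline, which turns the hairpin on. Titles name the control after a control shRNA, but the treatment labels and the design text give vehicle and the same inducible cells, and that reading was followed. Every shMUC1 library also had doxycycline, so the drug and the silencing cannot be told apart.

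Libraries held 18678307 to 27825546 counts. MUC1 itself stood at 4.24, 3.45 and 3.95 CPM (counts scaled to a common library size) in the control libraries and at 2.61, 1.98 and 1.83 CPM in the shMUC1 libraries, a log2 fold change of -0.84 (SE 0.214, edgeR adjusted p of 0.00119). The line's identity was checked by marker lists. The 4 mesenchymal markers VIM, CD44, MSN and AXL summed to 3678 to 3762 CPM in control and 2776 to 2850 CPM in shMUC1 libraries. The 6 epithelial markers (EPCAM, CDH1, KRT8, KRT18, KRT19 and ESRP1) summed to 541 to 575 CPM and 1091 to 1132 CPM. Most of this sum was KRT8 (means of 426 and 825 CPM) and KRT18 (131 and 266 CPM). EPCAM (3.28 and 14.3 CPM) and CDH1 (0.489 and 6.02 CPM) also rose from low levels. KRT19 and ESRP1 had 0 to 4 counts a library. Of the 3 receptor genes that define the triple-negative class (ESR1, PGR and ERBB2), the sum was 42.9 to 47.6 CPM and 39.1 to 39.6 CPM, nearly all from ERBB2. The sums stayed under 5 CPM in every library for 4 immune markers (0.411 to 0.616 CPM, then 0.977 to 1.63 CPM), 3 endothelial markers (1.74 to 2.10 CPM, then 0.544 to 0.699 CPM) and 3 fibroblast markers (2.05 to 4.38 CPM, then 1.94 to 2.32 CPM), with CD3E, DCN and LUM at 0 throughout. The part of the mesenchymal and epithelial shift in the results below was not tested. In bulk RNA, fewer cells that express a gene and less RNA per cell cannot be told apart.

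To ask how the remodelers stood when MUC1 was silenced, each gene was compared between the groups. Of the 43 members with enough counts to test, 13 were higher and 17 were lower in shMUC1 cells at an adjusted p under 0.05, and 13 passed in neither direction. Across all 15355 genes tested, 25.2% were higher and 23.6% lower, 48.7% in all, and of the 11128 genes that averaged 100 counts or more 58.4% were called, so 30 of 43 (69.8%) has to be read against a contrast in which most well-expressed genes moved. None of the 43 changed by more than 2-fold, a mark that 5.95% of all tested genes passed. The median log2 fold change was -0.06 over the members and 0.00058 over all tested genes. Members together held 3854 ± 21.6 CPM in control and 3683 ± 22.7 CPM in shMUC1 libraries (SD, n = 3 each).

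**Figure D1:**
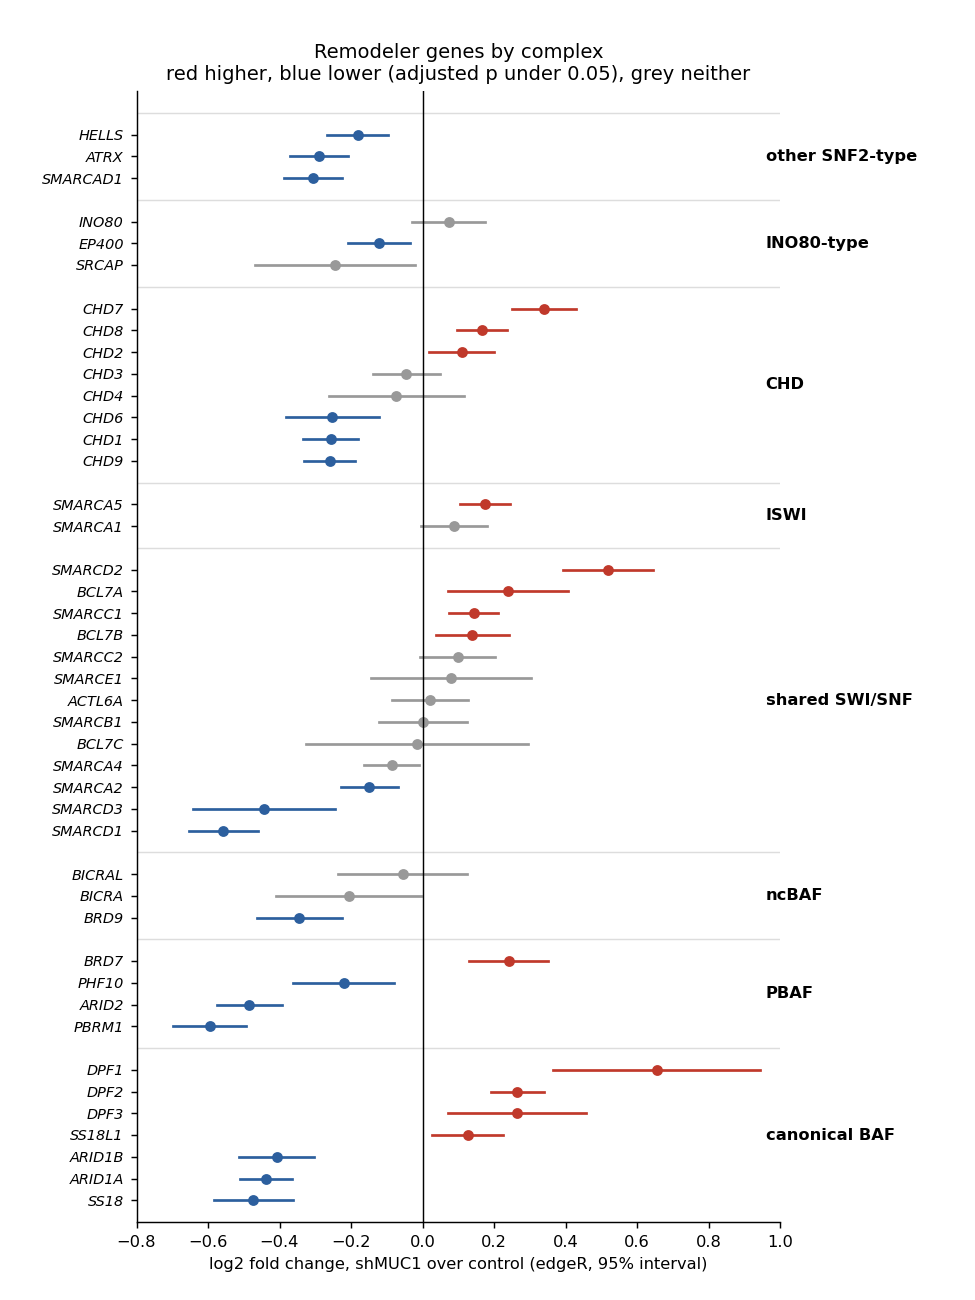
Log2 fold change (x axis, shMUC1 over control, edgeR) of the 43 tested members, grouped by complex, with lines for the 95% interval before adjustment and colors for the call at an adjusted p under 0.05. Changes run from -0.60 for PBRM1 to 0.65 for DPF1, and rises and falls stand side by side within canonical BAF, PBAF, the shared SWI/SNF subunits and the CHD family.

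PBAF is defined by PBRM1, a protein with a row of bromodomains that bind acetylated histones, by ARID2, its DNA-binding subunit, and by BRD7 and PHF10, further readers of histone marks. PBRM1, the subunit named in the title of the study, had the largest fall of any member. It stood at 83.4, 85.4 and 79.1 CPM in control libraries and at 56.0, 53.5 and 54.6 CPM in shMUC1 libraries, without overlap. Its log2 fold change was -0.60 (SE 0.0498), equal to a level that fell by 33.8%, with an edgeR adjusted p of 1.15e-12. ARID2 moved the same way and its control libraries lay close together, at 98.4, 98.8 and 99.2 CPM, against 72.0, 67.9 and 72.0 CPM with shMUC1. The log2 fold change of ARID2 was -0.48 (SE 0.0451), with an edgeR adjusted p of 1.75e-11.

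PHF10, a subunit with paired PHD fingers, fell less. It stood at 35.1, 40.2 and 42.2 CPM in control and 34.6, 32.9 and 33.4 CPM in shMUC1 libraries, so that control replicate 1 lay barely above the highest shMUC1 library. Its log2 fold change was -0.22 (SE 0.069, edgeR adjusted p of 0.00769), and without control replicate 3 it was -0.18 with an adjusted p of 0.0543. BRD7 went the other way, from 56.0, 52.3 and 50.1 CPM to 62.1, 60.1 and 65.0 CPM. This was a rise of 0.24 on the log2 scale (SE 0.055, edgeR adjusted p of 0.000376). Thus 3 of the 4 genes that mark PBAF were lower and 1 was higher. Of all tested genes 23.6% were lower and 25.2% higher (26.7% and 31.7% of those that averaged 100 counts or more). Exons of BRD7 share 42.4% of their bases with genes on the opposite strand, mainly ADCY7, and the strand setting of the counting was not given in the sources used here, so its count is uncertain. The same holds in small part for PBRM1, which shares 1.51% with SMIM4.

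**Figure D2:**
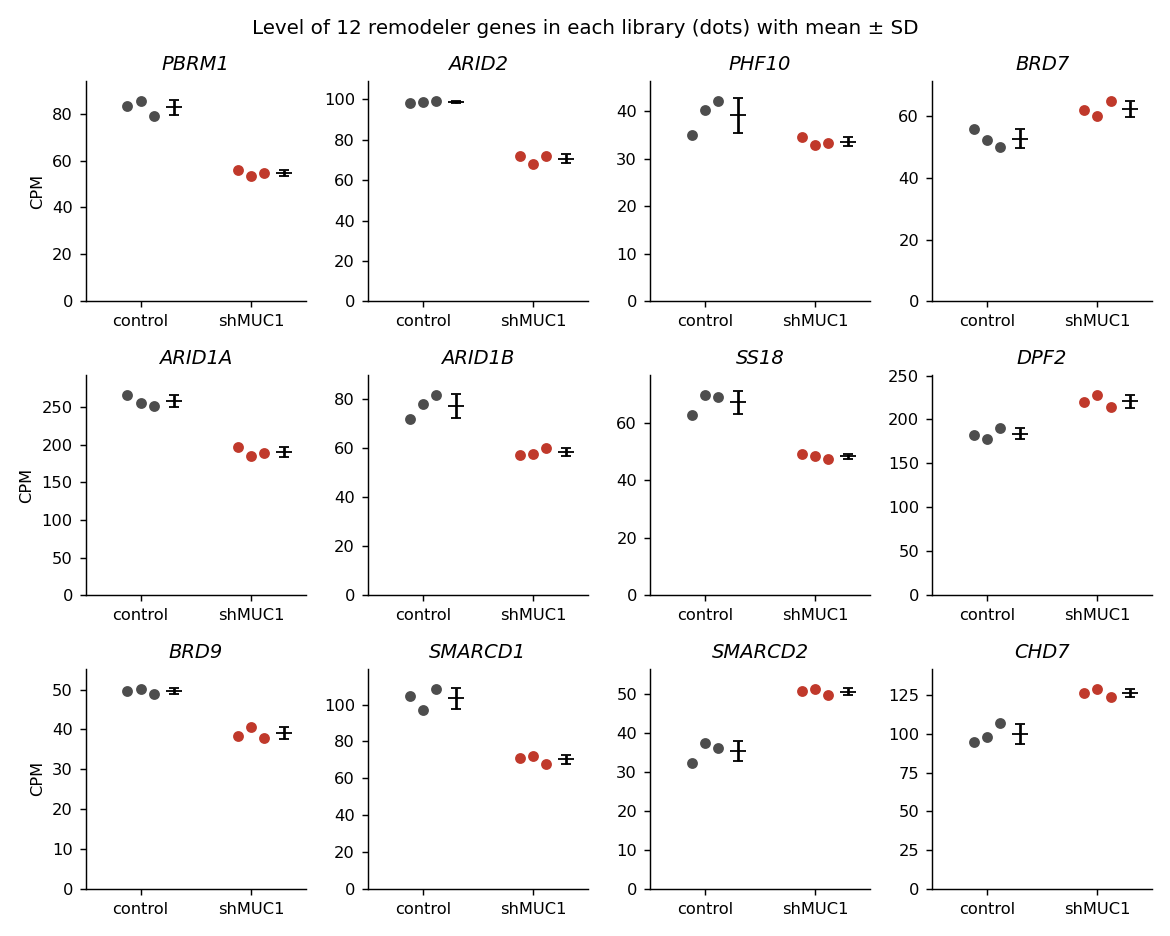
CPM (y axis, from 0) of 12 SWI/SNF and CHD genes in each of the 3 control (grey) and 3 shMUC1 (red) libraries, with the mean and SD beside the dots. The 12 genes were picked without a stated rule from members with a call, and their groups do not overlap. Over all 43 tested members 32 did not overlap, against 54.8% of all tested genes. The gap is narrowest for PHF10. Its lowest control library is at 35.1 CPM and its highest shMUC1 library at 34.6 CPM.

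Canonical BAF carries ARID1A or ARID1B, large alternative DNA-binding subunits, together with a DPF reader and SS18 or its relative SS18L1. Both ARID1 genes were lower. ARID1A, often lost in carcinomas, stood at 266, 256 and 251 CPM in control and 197, 184 and 189 CPM in shMUC1 libraries, a log2 fold change of -0.44 (SE 0.036, edgeR adjusted p of 6.71e-13). ARID1B went from 71.7, 77.8 and 81.5 CPM to 56.9, 57.6 and 60.0 CPM, a log2 fold change of -0.41 (SE 0.0522, edgeR adjusted p of 2.8e-08). A GC and length correction, chosen after seeing the data, took out each library's trend of counts with GC content and exon length. Length here is the union of all annotated exons of a gene. With this correction ARID1B was at -0.11 with an edgeR adjusted p of 0.0722. The exon union of ARID1B is 44677 bases, against a median of 4766.5 bases over all tested genes.

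SS18, known for its fusion with SSX genes in synovial sarcoma, went from 62.6, 69.7 and 69.1 CPM to 49.0, 48.5 and 47.4 CPM. Every shMUC1 library lay below every control library, with a log2 fold change of -0.47 (SE 0.0545, edgeR adjusted p of 2.74e-09). SS18L1, its neuronal-type counterpart, had a log2 fold change of 0.13 (edgeR adjusted p of 0.0305), but its groups overlapped, and the call was lost under 7 of 15 alternatives.

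The DPF genes encode histone readers that take the place of PHF10 in canonical BAF. All 3 were higher, where 25.2% of all tested genes were (31.7% of those that averaged 100 counts or more). DPF2, the widely expressed one, rose from 183, 178 and 190 CPM to 220, 228 and 214 CPM, a log2 fold change of 0.27 (SE 0.0367, edgeR adjusted p of 1.4e-07). DPF1, best known from neurons, had the largest rise of any member, from 4.42, 4.84 and 4.88 CPM to 7.78, 7.11 and 7.42 CPM. The log2 fold change of DPF1 was 0.65 (SE 0.143, edgeR adjusted p of 0.000217), at 97 to 215 counts a library. DPF3 was at 15.3 ± 1.6 and 18.3 ± 0.782 CPM (SD, n = 3 each), with a log2 fold change of 0.26, and lost its call under 4 of 15 alternatives, the lowest value being 0.17 without control replicate 3 (adjusted p of 0.185).

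ncBAF is the smallest of the SWI/SNF assemblies and is marked by BRD9 and by BICRA or BICRAL. Each member was placed in a single class, so subunits that ncBAF shares with other assemblies are described with those. BRD9, a single-bromodomain reader, stood at 49.7, 50.2 and 48.8 CPM in control and 38.4, 40.7 and 37.9 CPM in shMUC1 libraries. It was lower by a log2 fold change of -0.34 (SE 0.059, edgeR adjusted p of 6.53e-06). BICRA (16.3 ± 1.17 to 14.1 ± 1.40 CPM) and BICRAL (22.2 ± 3.07 to 21.3 ± 0.521 CPM, SD, n = 3 each) did not pass, with edgeR adjusted p of 0.0869 and 0.641. Their 95% intervals ran from -0.41 to -0.0032 and from -0.24 to 0.12 on the log2 scale, so changes of that size in either gene were not resolved. BICRA was at -0.13 without shMUC1 replicate 1, at -0.28 with a call without shMUC1 replicate 2 (adjusted p of 0.0432), and at -0.11 after the GC and length correction.

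The motors of SWI/SNF, SMARCA4 (BRG1) and SMARCA2 (BRM), moved little. SMARCA4 stood at 149, 155 and 160 CPM in control and 145, 146 and 145 CPM in shMUC1 libraries, a log2 fold change of -0.09 (SE 0.038, edgeR adjusted p of 0.0589). The groups did not overlap for SMARCA4 but the test was not passed, and the 95% interval ran from -0.16 to -0.01. SMARCA2 was at 146, 140 and 147 CPM and then at 134, 130 and 126 CPM, a log2 fold change of -0.15 (SE 0.0392, edgeR adjusted p of 0.00176). After the GC and length correction SMARCA2 was at -0.03 and SMARCA4 at 0.06, both without a call. SMARCA4 passed as lower under 4 of 15 alternatives, with library totals (edgeR adjusted p of 0.017), above a mean of 50 counts (0.0138), with halved counts (0.0362) and without control replicate 1 (0.0402).

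The SMARCD genes encode interchangeable scaffold subunits that connect the complexes to transcription factors, and they diverged most within SWI/SNF. SMARCD1 fell from 104, 97.3 and 109 CPM to 70.9, 72.3 and 67.6 CPM, a log2 fold change of -0.56 (SE 0.0475, edgeR adjusted p of 1.91e-12). SMARCD2, which is needed for granulocyte development, rose from 32.4, 37.4 and 36.0 CPM to 50.7, 51.3 and 49.8 CPM, a log2 fold change of 0.52 (SE 0.0623, edgeR adjusted p of 6.87e-09). Per kilobase of annotated exon, SMARCD1 was at 20.1 ± 1.12 CPM and SMARCD2 at 9.44 ± 0.691 CPM in control cells, against 13.7 ± 0.469 and 13.5 ± 0.209 CPM with shMUC1 (SD, n = 3 each). By this measure the difference in level between these genes in control cells was no longer larger than its spread in shMUC1 cells. That equality depends on the annotated exon lengths of 5136 and 3734 bases. Without division by length, SMARCD1 still lay above SMARCD2 in CPM in every shMUC1 library. SMARCD3, the form best known from heart and muscle, was at 16.6 ± 0.463 and 12.2 ± 0.699 CPM (SD, n = 3 each), with a log2 fold change of -0.44 and an edgeR adjusted p of 0.000248.

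Among the other shared subunits, SMARCC1, part of the structural core, was at 244 ± 2.57 CPM in control and 269 ± 7.70 CPM in shMUC1 libraries (SD, n = 3 each), and rose by 0.14 on the log2 scale (edgeR adjusted p of 0.000504). BCL7A and BCL7B, small subunits that accompany the motor, were higher by 0.24 and 0.14, with edgeR adjusted p of 0.0163 and 0.0206, calls that were lost under 2 and 3 of 15 alternatives, without control replicate 1 or shMUC1 replicate 1 for BCL7A and, among others, without control replicate 3 or shMUC1 replicate 2 for BCL7B. SMARCC2 (0.10), SMARCE1 (0.08), ACTL6A (0.02), SMARCB1 (0.0015) and BCL7C (-0.0154) did not pass, where each value is a log2 fold change. The narrowest of these intervals was that of SMARCC2, from -0.01 to 0.20, and the widest that of BCL7C, from -0.32 to 0.29, at 105 to 179 counts a library. Without control replicate 1 SMARCC2 was at 0.16 with a call (edgeR adjusted p of 0.0184), without control replicate 3 it was at 0.0405, without shMUC1 replicate 2 at 0.0658, and the GC and length correction gave 0.13 with a call (adjusted p of 0.0304). ACTL6B, an actin-related subunit of neuronal BAF, had 1 to 8 counts a library and was not tested. SMARCB1, the core subunit lost in rhabdoid tumors, shares 17.7% of its exon bases with DERL3 on the opposite strand.

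To compare related subunits and motors, 10 pairs were also read as ratios within each library, which do not depend on how libraries are scaled. SMARCA5 with SMARCA1 and CHD4 with CHD3 lie outside SWI/SNF. BRD9 with BRD7 and DPF2 with PHF10 mark different assemblies. The ratios are of counts and are not corrected for length, so that only their shift between groups is informative. An exact two-sided permutation test of 3 against 3 libraries cannot go below 0.1, and no pair can therefore pass 0.05. The log2 ratio of SMARCD1 to SMARCD2 was 1.69, 1.38 and 1.59 in control and 0.48, 0.49 and 0.44 in shMUC1 libraries, a shift of -1.08 (exact permutation p of 0.1, adjusted over 10 pairs 0.2).

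Of the other pairs, SS18 to SS18L1 shifted by -0.60, BRD9 to BRD7 by -0.59, DPF2 to PHF10 by 0.48 and SMARCA5 to SMARCA1 by 0.09. Each was without overlap and had the same exact permutation p of 0.1. Exons shared with other gene models make the ratios with BRD7 and CHD4 uncertain. ARID1A to ARID1B shifted by -0.04, ARID1A to ARID2 by 0.04, SMARCA4 to SMARCA2 by 0.06, SMARCC1 to SMARCC2 by 0.04 and CHD4 to CHD3 by -0.02, and in these 5 pairs the groups overlapped, with exact permutation p from 0.2 to 0.9. The uncorrected RNA ratio of ARID1A to ARID2 thus shifted by about as much as replicates differed (SD of 0.0486 in control and 0.0334 in shMUC1 libraries). The make-up of the complexes was not measured in these libraries. After the GC and length correction the 3 ARID genes were further apart, at log2 fold changes of -0.32 for ARID1A, -0.11 for ARID1B and -0.42 for ARID2.

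**Figure D3:**
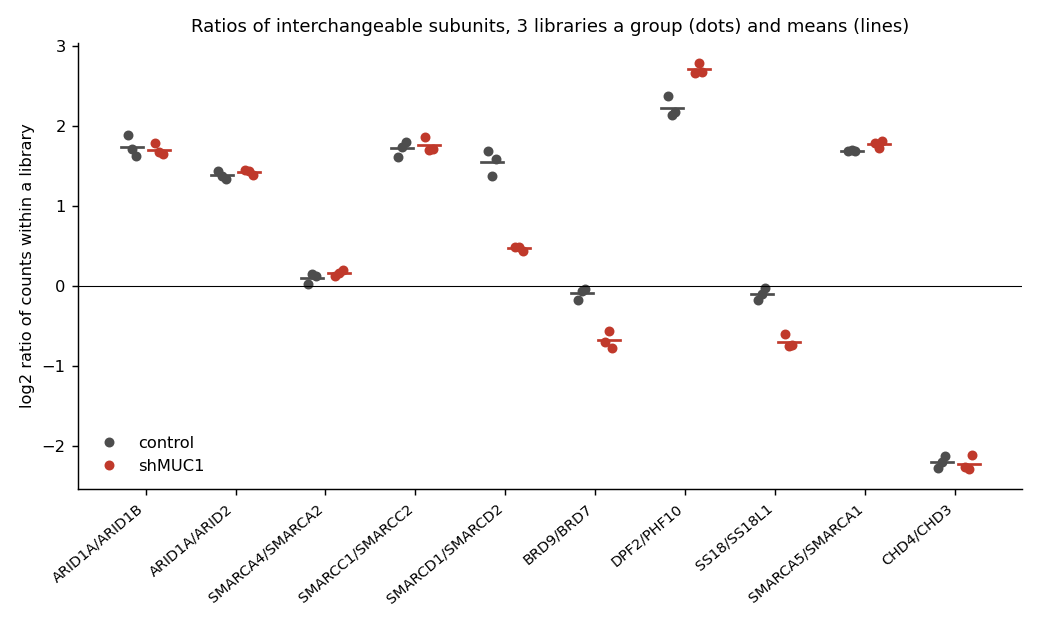
Log2 ratio of counts (y axis, not corrected for length) of 10 pairs of related subunits within each library, with dots for the 3 control (grey) and 3 shMUC1 (red) libraries and lines for the means. SMARCD1/SMARCD2 drops from a mean of 1.55 to 0.47, whereas ARID1A/ARID2 stays at 1.38 and 1.43.

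Outside SWI/SNF, the ISWI motors slide nucleosomes into regular arrays. SMARCA5 (SNF2H) was among the most abundant members per kilobase. It rose from 252, 268 and 269 CPM to 292, 294 and 305 CPM, a log2 fold change of 0.17 (SE 0.0341, edgeR adjusted p of 5.05e-05). SMARCA1 (SNF2L) was at 78.2, 82.6 and 83.7 CPM and at 84.6, 89.1 and 86.4 CPM, also without overlap, but its log2 fold change of 0.09 did not pass (edgeR adjusted p of 0.112).

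The CHD family of chromodomain motors split evenly, with 3 genes higher, 3 lower and 2 in neither group. Over all tested genes 25.2% were higher and 23.6% lower (31.7% and 26.7% of those that averaged 100 counts or more). CHD7, whose mutations cause CHARGE syndrome, rose most, from 94.5, 98.2 and 107 CPM to 126, 129 and 124 CPM, a log2 fold change of 0.34 (SE 0.0437, edgeR adjusted p of 3.09e-08). CHD8, a close relative tied to autism, was at 217, 217 and 222 CPM and then at 250, 237 and 250 CPM, a rise of 0.17 on the log2 scale (edgeR adjusted p of 0.000113). The third of this subfamily to move, CHD9, went down, from 211, 204 and 205 CPM to 176, 173 and 168 CPM (log2 fold change -0.26, SE 0.0358, edgeR adjusted p of 1.26e-07). CHD6, the fourth, fell from 44.2, 42.9 and 40.6 CPM to 33.7, 36.4 and 37.2 CPM (log2 fold change -0.25, edgeR adjusted p of 0.00117). After the GC and length correction CHD8 was at 0.31 and CHD9 at -0.15 on the log2 scale, both still called.

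CHD1, which binds methylated histone H3 at active promoters, stood at 182, 185 and 174 CPM in control and 150, 155 and 148 CPM in shMUC1 libraries, with a log2 fold change of -0.26 (SE 0.0377, edgeR adjusted p of 4.34e-07). CHD2 was at 79.0, 77.6 and 81.3 CPM and at 84.1, 85.6 and 87.2 CPM, and its call (log2 fold change 0.11, edgeR adjusted p of 0.0427) was lost under 10 of 15 alternatives, while the GC and length correction gave 0.21. CHD3 and CHD4, the motors of the NuRD deacetylase complex, did not pass. CHD3 was at 77.7, 79.8 and 81.7 CPM in control and 77.1, 79.5 and 75.2 CPM in shMUC1 libraries, and CHD4 at 16.0, 17.4 and 18.7 CPM and 16.1, 16.3 and 17.3 CPM, with edgeR adjusted p of 0.45 and 0.549. The level of CHD4 is uncertain, because 46.9% of its exon bases lie in another gene model on the same strand, a model with no row of its own in the table. Shared exons on the same strand also make the levels of SRCAP (74.1% of bases) and SMARCE1 (19.8%) uncertain.

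INO80, SRCAP and EP400 are very large motors whose complexes exchange the histone variant H2A.Z. INO80 was at 62.9, 67.2 and 66.3 CPM and at 72.2, 67.2 and 67.0 CPM, with a log2 fold change of 0.07 that did not pass (edgeR adjusted p of 0.245). SRCAP was at 11.5, 13 and 12 CPM and at 11, 9.47 and 10.3 CPM, which did not overlap, with a log2 fold change of -0.24 and an edgeR adjusted p of 0.0654. SRCAP passed with library totals (adjusted p of 0.0447) and above a mean of 50 counts (0.0418), and was at -0.13 after the GC and length correction. EP400 stood at 108, 104 and 113 CPM and then at 103, 95.9 and 100.3 CPM. Its log2 fold change was -0.12 (SE 0.0432, edgeR adjusted p of 0.0183), and after the GC and length correction it was 0.02 without a call. The call was also lost without control replicate 3 (adjusted p of 0.0634) or shMUC1 replicate 2 (adjusted p of 0.124).

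The remaining motors act mainly on silent or repetitive chromatin, and all 3 were lower. Of all tested genes 23.6% were lower (26.7% of those that averaged 100 counts or more). SMARCAD1, which helps to keep heterochromatin through replication, fell from 130, 126 and 124 CPM to 103, 102 and 102 CPM, a log2 fold change of -0.31 (SE 0.0402, edgeR adjusted p of 4.77e-08). ATRX, which deposits histone H3.3 with its partner DAXX, fell from 144, 141 and 144 CPM to 118, 121 and 112 CPM (log2 fold change -0.29, SE 0.04, edgeR adjusted p of 1.36e-07), and was at -0.16 after the GC and length correction. HELLS (LSH), needed for DNA methylation of repeats, fell from 112, 118 and 116 CPM to 105, 99.6 and 100.3 CPM (log2 fold change -0.18, edgeR adjusted p of 0.000406).

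Across the whole set, the groups did not overlap in CPM for 13 members that lay higher and 19 that lay lower in shMUC1 libraries. These are 32 of the 43 tested, against 54.8% of all tested genes. The median of the mean counts was 1648 over tested members and 438 over all tested genes. A share among genes of like counts was not taken, so no excess can be read from this.

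Set side by side per kilobase of annotated exon, the 18 motors covered a wide range in control cells. SMARCA5 was highest at 31.4 ± 1.13 CPM per kilobase, followed by SMARCAD1 at 20.1 ± 0.473, SMARCA1 at 18.7 ± 0.676 and CHD1 at 17.3 ± 0.554 (SD, n = 3 each). CHD9 (12.5 ± 0.231), HELLS (11.4 ± 0.295), CHD8 (10.4 ± 0.152), SMARCA4 (9.79 ± 0.328) and INO80 (9.33 ± 0.326) came next. Below these lay CHD3 (8.17 ± 0.206), SMARCA2 (7.76 ± 0.216), ATRX (7.42 ± 0.0951), CHD7 (5.88 ± 0.371), EP400 (5.80 ± 0.219), CHD2 (4.68 ± 0.110), CHD6 (3.01 ± 0.130), CHD4 (1.37 ± 0.107) and SRCAP (0.889 ± 0.0550). Neighbors in this order that lay within the sum of their SDs were SMARCA4 and INO80, CHD3 and SMARCA2, and CHD7 and EP400, and the other neighbors lay further apart. In shMUC1 cells 5 pairs stood in reverse of their order in control cells by more than the sum of their SDs in both groups. SMARCA1 (19.9 ± 0.519) lay above SMARCAD1 (16.2 ± 0.109), CHD8 (11.7 ± 0.34) above CHD9 (10.5 ± 0.247) and HELLS (10.02 ± 0.305), and CHD7 (7.44) above SMARCA2 (6.99) and ATRX (6.07). Exon length was taken as the union of all annotated exons, which makes genes with many minor exons look low.

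**Figure D4:**
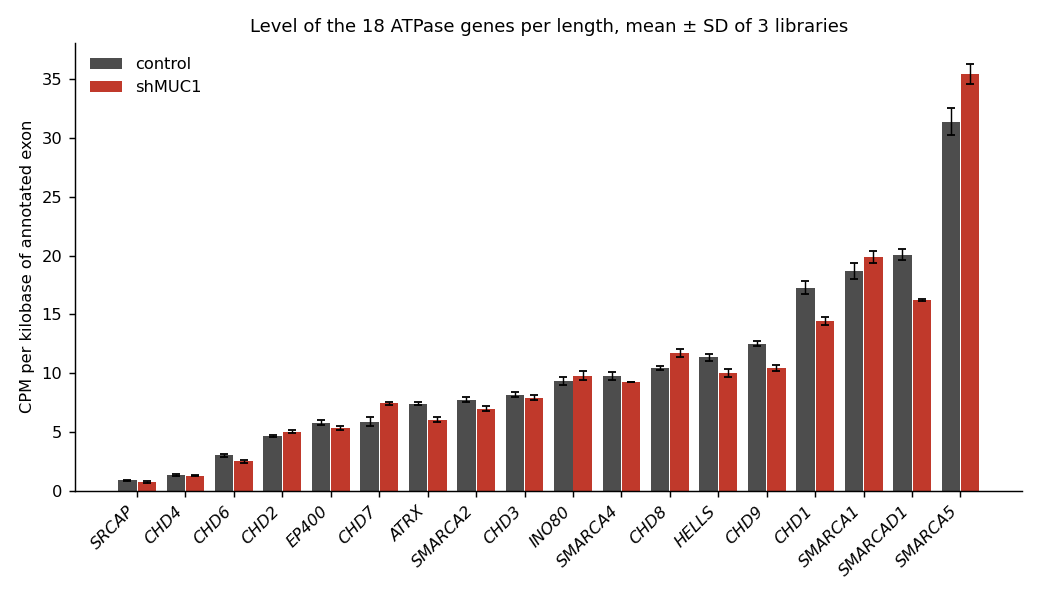
Level of the 18 motor genes in CPM per kilobase of annotated exon (y axis, from 0), as bars for the mean and SD of 3 control (grey) and 3 shMUC1 (red) libraries. SMARCA5 is highest in both groups at 31.4 and 35.4, and the low bars of CHD4 and SRCAP belong to genes whose exons overlap another model on the same strand.

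The members were then read for a feature of sequence. In this table, genes with the word ATCAGTA in a 3′ untranslated region (3′ UTR) were lower more often than others. This word had been picked in an earlier scan of the same data for words tied to lower expression, so that what follows describes the members and is not independent evidence. It was searched on the transcript strand in the annotated 3′ UTRs of protein-coding transcripts (GENCODE release 29, GRCh38). Of 13023 tested genes with such a UTR, 12.8% held it in at least 1 transcript, and 43.2% of these were lower in shMUC1 cells, against 22.4% of genes without it. Among the 43 members 15 held it (34.9%). The longest annotated 3′ UTR had a median of 2101 bases over the 43 members and 1416 bases over all tested genes. It was longer where the word was present, with medians of 3145 and 1348.5 bases for members with and without it and 3238 and 1242 bases for all tested genes, so that the presence of the word moves with UTR length.

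A selection of sites is shown, from 6 members that fell and from SMARCA4, which did not pass. PBRM1, SMARCD1, ARID2 and SS18 are the 4 members with the largest falls. The choice of CHD1, CHD9 and SMARCA4 followed no stated rule. Sites of ARID1B, ATRX and SMARCA2 (lower) and of BCL7A and CHD2 (higher) are among those not shown. Further sites in PBRM1, SS18 and CHD9 are also left out. Each site shown is given 5′ to 3′ along the transcript with the word in capitals, and all lie in a 3′ UTR exon.

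PBRM1, chr3:52548000-52548028, minus strand, in 8 of 8 transcripts: aagagttgtggATCAGTAgccattttagt
ARID2, chr12:45905597-45905625, plus strand, in 3 of 5 transcripts: tttgtttagaaATCAGTAgcttggttttc
SMARCD1, chr12:50099621-50099649, plus strand, in 3 of 3 transcripts: ttggggtccacATCAGTAttggagttttg
SS18, chr18:26018200-26018228, minus strand, in 3 of 3 transcripts: gtggctgtttcATCAGTAagcagcctttg
CHD1, chr5:98856259-98856287, minus strand, in 2 of 2 transcripts: acagatcttctATCAGTAgcagtattgtt
CHD9, chr16:53325608-53325636, plus strand, in 6 of 6 transcripts: ttaattcagatATCAGTAaaattaagtca
SMARCA4, chr19:11061991-11062019, plus strand, in 27 of 32 transcripts: cctgtcctggcATCAGTAgcatctgtaac

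In the sites of PBRM1, ARID2, CHD1 and SMARCA4 the same pair of bases, gc, follows the word. It also follows the word in SMARCE1, whose site is not shown. SMARCA4 and SMARCE1 did not pass, so the pair is not particular to members that fell. Of the 15 members with the word, 9 were lower (PBRM1, ARID2, SMARCD1, SS18, ARID1B, CHD1, CHD9, ATRX and SMARCA2), 2 were higher (BCL7A and CHD2) and 4 did not pass (SMARCA4, SMARCB1, SMARCE1 and SRCAP). Of the 28 members without it, 8 were lower (ARID1A, SMARCD3, BRD9, SMARCAD1, CHD6, PHF10, HELLS and EP400), 11 were higher and 9 did not pass. The median log2 fold change was -0.26 with the word and 0.05 without it among members, and -0.12 and 0.03 among all tested genes. ARID1A, which fell by 0.44 on the log2 scale, holds only the shorter TCAGTA, in 2 of 5 transcripts. In ARID1B, BCL7A, CHD2, SMARCB1 and SRCAP the word was in a single annotated transcript, so whether it is present in the RNA of these cells is not known. The part of the word in these changes was not tested.

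**Figure D5:**
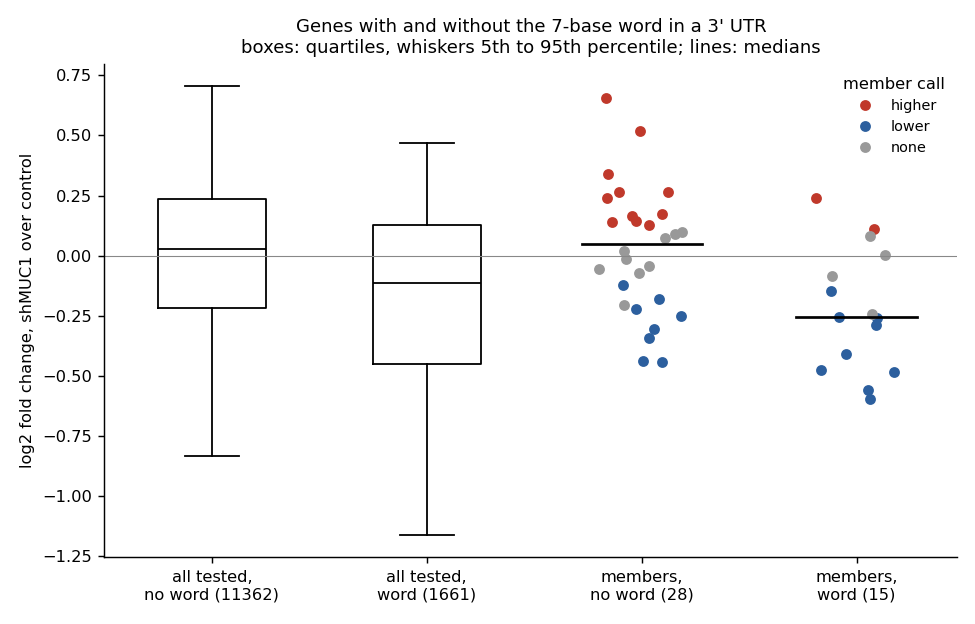
Log2 fold change (y axis) of all tested genes (boxes with quartiles, whiskers at the 5th and 95th percentiles) and of the tested members (dots colored by call, lines at the medians), each without and with the word in a 3′ UTR. The member medians are 0.05 and -0.26, and members that rose or did not pass are present on both sides.

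To see whether other subunits of the same complexes moved, 63 partner genes and relatives listed by name were read from the same test. Of the 62 tested, 17 were higher and 18 were lower (56.5% called), with a median log2 fold change of -0.0032. This share lies near that of all tested genes (48.7%, and 58.4% of those that averaged 100 counts or more). Without shMUC1 replicate 3 the number lower was 11, and after the GC and length correction 20 were higher and 13 lower. Each gene was listed under a single complex, also where it belongs to several. RBBP4 (lower) and RBBP7 (higher) were listed with the ISWI partners, RUVBL1 and RUVBL2 with those of INO80. Among the 10 genes listed for NuRD 5 were higher, including the deacetylases HDAC1 (0.21) and HDAC2 (0.14), and 2 were lower. Of all tested genes 25.2% were higher and 23.6% lower (31.7% and 26.7% of those that averaged 100 counts or more). The alternative subunits MBD3 and MBD2 parted. MBD3 was at 20, 19.9 and 22.6 CPM in control and 13.8, 12.3 and 12.1 CPM in shMUC1 libraries. Its log2 fold change was -0.71 (SE 0.0947, edgeR adjusted p of 7.27e-08), and that of MBD2 was 0.32 (SE 0.0485). HDAC1, HDAC2 and MBD2 were picked for mention after their values were seen.

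Of the ISWI partners 4 were higher and 6 lower of 11, or 90.9% called. This compares with 48.7% of all tested genes and 58.4% of those that averaged 100 counts or more. Apart from BAZ2B and CECR2, these partners averaged 1122 counts or more, and a change of 0.09 on the log2 scale (BAZ1B) was called. BAZ2A (TIP5), the partner of SMARCA5 in silencing ribosomal DNA, was at 176, 173 and 177 CPM in control and 232, 228 and 225 CPM in shMUC1 libraries, a rise of 0.38 on the log2 scale (SE 0.0348, edgeR adjusted p of 1.11e-11). CECR2, a bromodomain partner of ISWI motors, was the only partner past 2-fold and is named for that after its values were seen. It was at 2.65, 3.37 and 2.56 CPM in control and 0.977, 0.233 and 1.18 CPM in shMUC1 libraries, a log2 fold change of -1.88 (SE 0.338, edgeR adjusted p of 1.49e-05), at a mean of 43.5 counts.

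For the INO80 partners 2 were higher and 2 lower of 12 tested, and for those of SRCAP and TIP60-EP400 3 and 3 of 15, or 33.3% and 40% called, both below the share over all tested genes. MORF4L1 (MRG15), a reader of methylated histone H3 in TIP60, was at 142, 153 and 148 CPM in control and 199, 203 and 201 CPM in shMUC1 libraries, a rise of 0.44 on the log2 scale (SE 0.0371, edgeR adjusted p of 1.33e-12). EPC1, a scaffold of the same complex, went from 14.6, 15 and 13.6 CPM to 12.5, 11.2 and 11.2 CPM, a log2 fold change of -0.31 (SE 0.103, edgeR adjusted p of 0.0133). Neither gene overlapped between the groups. Among 14 other relatives 3 were higher and 5 lower, or 57.1% called. This compares with 48.7% of all tested genes and 58.4% of those that averaged 100 counts or more. ZRANB3, a motor that remodels stalled replication forks, went from 5.11, 5.42 and 4.10 CPM to 7.82, 6.52 and 5.86 CPM, a rise of 0.48 on the log2 scale (SE 0.155, edgeR adjusted p of 0.0102). TTF2, a motor that releases RNA polymerase II, went from 50.2, 50 and 48.7 CPM to 38.9, 34.4 and 42.2 CPM, a log2 fold change of -0.37 (SE 0.0645, edgeR adjusted p of 7.89e-06).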

How the data were processed

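A table of unnormalized read counts by gene symbol, deposited by the authors with 1 column per library, came from a stranded poly(A) kit. The submitters' processing notes name STAR 2.7.9a, featureCounts, DESeq2 1.24.0 and the build GRCh38.p7. The annotation release and strand setting are not given in the sources used here. Symbols were matched to GENCODE release 29 (98.2% of symbols) for exon length, overlaps and 3′ UTRs.

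Counts were tested with the edgeR 4.0.16 quasi-likelihood test in R 4.3.3 (TMM, filterByExpr, group as the only term, two-sided, Benjamini-Hochberg adjustment over 15355 genes). The code was also run on simulated counts. Far fewer genes changed in these than were called here, so that run cannot check the calls. CPM used TMM-scaled totals. SEs and 95% intervals came from the F statistic. DESeq2 1.42.0, limma-voom (limma 3.58.1) and other alternatives were run. The members, lists, pairs and tests were chosen with earlier results of these data known. PBAF genes, motors and, per complex, the 2 called genes that changed most (100 counts or more on average) are given by library, and among partners, under the same minimum, the 3 called genes that rose most and the 3 that fell most. ARID1A, ARID1B and DPF2 are given by library after their values were seen. Libraries of a group were cultured in triplicate per the labels. If these were not separate cultures, p-values measure only the spread between libraries. A gene's counts are limited by counting error, and 3 counts equal 0.161 CPM in the shallowest library. Most values from 1 to 20 counts (68.8% to 70.5% by library) are even, and halved counts were therefore tried.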

Additional observations from a re-analysis of the deposited data

How the results depend on the processing

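The settings tried were normalization by DESeq2 size factors or by library totals, testing without a low-count filter or above a mean of 50 counts, the tools DESeq2 and limma-voom, a replicate block, halved counts, each library left out, and, chosen after seeing the data, the GC and length correction. Of 645 member values under them, 583 kept direction and side of the threshold, 31 lost the call, 9 gained it and 22 changed sign, and 23 of 43 members kept both in every one, PBRM1 (-0.64 to -0.56), ARID2, ARID1A, SMARCD1 and SMARCD2 among them. Members higher numbered from 9 to 14 and members lower from 14 to 19. When a fold change over 2 was also asked for, 0 members were higher and 0 lower. Partner genes lower ranged from 11 to 18 without one library, with the low at shMUC1 replicate 3, and partner genes higher numbered from 12 to 20 over all settings. The GC and length correction gave 20 higher and 13 lower. The 9 values that gained a call were of SMARCA4 (4), SMARCC2 (2), SRCAP (2) and BICRA (1).

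Sign changes were all in members without a call except EP400 (0.0217 after the GC and length correction). That setting also gave SMARCA4 0.0557, CHD3 0.0159, CHD4 0.0044, BCL7C 0.0473 and ACTL6A -0.0031. SMARCB1 was -0.0014 with DESeq2 size factors, -0.0205 with library totals, -0.0213 above a mean of 50 counts and -0.0056 with halved counts, and ACTL6A -0.0015 and -0.0022 with library totals and above a mean of 50 counts. Without one library, BICRAL ranged from -0.1686 to 0.044, SMARCB1 from -0.018 to 0.0257, SMARCE1 from -0.0287 to 0.1729, ACTL6A from -0.0172 to 0.0484, BCL7C from -0.1285 to 0.0886, and the ratios ARID1A/ARID1B from -0.0965 to 0.0383, SMARCC1/SMARCC2 from -0.0097 to 0.0837 and CHD4/CHD3 from -0.0708 to 0.0186. The causes were not tested.

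Replicate numbers did not pair the libraries (correlations of deviations 0.0167, -0.0311 and -0.0359). With a replicate block 13 members were higher and 17 lower. Depth limits ACTL6B, BCL7C and DPF1 most.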
